A study of Homo sapiens with 70 samples.

Results

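Aminoacyl-tRNA synthetases are the enzymes that load each tRNA with its amino acid, and 36 genes for them were followed here in 2 human liver cancer lines treated with an LXR agonist, a kinase inhibitor or both. The genes were taken by symbol, from a list drawn up with earlier results of these data known. Of them 20 encode cytosolic synthetases or their subunits and 16, with the suffix 2, encode mitochondrial synthetases. All 36 symbols were found among the 20090 gene symbols (32321 transcripts) of the authors' deposited tables, each through the 1 transcript that the authors marked as representative, and all 36 had a nonzero count in each of the 70 libraries. All 36 also passed the minimum mean of 2 CPM (counts scaled to library size) used here to call a gene expressed, with 4.82 CPM the lowest mean.

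Hep3B and Huh7 are established lines from hepatocellular carcinoma. Per the labels, each line was kept for 24 h with 5 µM GW3965 and 2 µM sorafenib together, with either drug alone at that concentration, or with DMSO as the vehicle, and poly-A RNA was sequenced. GW3965 activates the liver X receptors (LXR), nuclear receptors whose targets export cholesterol and make fatty acids, and sorafenib inhibits RAF and several receptor tyrosine kinases. Hep3B had 9 libraries in each of its 4 groups. Huh7 had 9 with both drugs, 9 labelled sorafenib, 8 labelled GW3965 and 8 with DMSO. Nothing in the labels says whether libraries of 1 group come from separate cultures, so the authors' p-values measure the spread between libraries, which may be technical. Depth per library is unknown, and single libraries were not analysed here. Every value below is a group mean or a group difference from the authors' edgeR comparisons with DMSO, so no spread between replicates is shown.

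The Huh7 groups with a single drug went against their labels in 4 genes taken as a check. ABCG1, an LXR target that exports cholesterol, had a log2 fold change over DMSO of 0.75 in the Huh7 group labelled GW3965 and 3.82 in the one labelled sorafenib in the authors' deposited tables, against 5.99 with GW3965 and 0.59 with sorafenib in Hep3B. DUSP6, a phosphatase induced by ERK signalling, had -1.70 in Huh7 labelled GW3965 and -0.02 in Huh7 labelled sorafenib in the authors' deposited tables, against 0.33 with GW3965 and -2.40 with sorafenib in Hep3B. SREBF1 and EGR1 were placed in the same way. These Huh7 groups are therefore called by their labels throughout, and no result below is read as the effect of 1 drug in Huh7. Hepatocyte markers were abundant in both lines, with ALB at 9618 CPM in Hep3B and 1804 CPM in Huh7 under DMSO by the authors' deposited tables for both drugs. The leukocyte marker PTPRC and the endothelial markers PECAM1, VWF and CDH5 stayed under 1 CPM in every group, while CD68, the other leukocyte marker of the list, had 11.8 CPM in Hep3B and 2.66 CPM in Huh7 under DMSO by the same authors' deposited tables.

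Each synthetase recognises 1 amino acid and joins it to the matching tRNAs at the cost of ATP, and the enzymes fall into classes I and II by the fold of their catalytic domain. Cytosol and mitochondria use separate genes for most amino acids, while GARS and KARS each supply both compartments. In the cytosol 8 of the genes (DARS, EPRS, IARS, KARS, LARS, MARS, QARS and RARS) encode enzymes of the multisynthetase complex, EPRS charges both glutamate and proline tRNAs, and FARSA and FARSB encode the subunits of 1 phenylalanine enzyme. Genes for cytosolic synthetases are known targets of ATF4, the transcription factor of the amino acid and integrated stress responses, which binds C/EBP-ATF composite elements that often read TGATGNAA.

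Because that element is the known link between ATF4 and these genes, the RefSeq promoter windows (GRCh38.p14, 250 bases before to 50 after the start site) were searched for TGATGNAA on both strands. The motif was chosen with the fold changes known. A window was found for 30 of the 36 genes, 16 cytosolic and 14 mitochondrial. Of these windows 7 of the 16 cytosolic (43.8%) and 1 of the 14 mitochondrial (7.14%) held the motif, against 4.46% of 27305 genes with a window and 3.62% of all 35116 windows. The stretches are shown 5′ to 3′ on the gene's strand, with the motif in capitals (TTNCATCA where it lies on the opposite strand).

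AARS: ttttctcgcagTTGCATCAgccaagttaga
CARS: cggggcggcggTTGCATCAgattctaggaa
GARS: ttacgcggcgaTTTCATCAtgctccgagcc
IARS: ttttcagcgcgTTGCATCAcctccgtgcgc
MARS: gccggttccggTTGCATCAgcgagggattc
NARS: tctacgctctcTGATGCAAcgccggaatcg
TARS: gcgcctttcgaTTGCATCAgctggtccagc
YARS2: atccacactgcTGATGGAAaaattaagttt

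These stretches lie at chr16:70289675-70289704 (-) for AARS, chr11:3057407-3057436 (-) for CARS, chr7:30594834-30594863 (+) for GARS and chr9:92293692-92293721 (-) for IARS. Those of MARS, NARS, TARS and YARS2 lie at chr12:57488053-57488082 (+), chr18:57621804-57621833 (-), chr5:33440956-33440985 (+) and chr12:32756076-32756105 (-). In MARS, CARS, IARS and GARS the motif began 4, 2, 13 and 33 bases before the start site, and in AARS and YARS2 187 and 197 bases before it. In TARS and NARS it lay just inside the transcript. In AARS, CARS, IARS, MARS and TARS the match reads TTGCATCA, NARS holds the same letters on the other strand, and GARS differs in 1 letter. A match is a description of the letters only, and a window without one (EPRS, SARS and WARS among the genes that rose) says nothing about binding by ATF4.

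Under DMSO the cytosolic genes were the more abundant class when levels are set per kilobase of transcript. The levels implied by the authors' deposited tables had a median of 35.0 CPM per kb over the cytosolic genes in Hep3B and 7.66 over the mitochondrial ones. In Huh7 the medians were 37.1 CPM per kb for cytosolic and 6.62 for mitochondrial genes. The cytosolic range in Hep3B ran from 10.7 CPM per kb for HARS, the histidine enzyme, to 61.1 for VARS, the valine enzyme, and in Huh7 from 8.76 for CARS, the cysteine enzyme, to 65.0 for KARS, the lysine enzyme. Among the mitochondrial genes PARS2, the proline enzyme, was lowest in both lines (2.19 CPM per kb in Hep3B and 2.40 in Huh7), and IARS2, the isoleucine enzyme, was highest (47.3 in Hep3B and 39.5 in Huh7). PARS2 was below every cytosolic gene in both lines, while IARS2 lay within the cytosolic range.

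With both drugs, most cytosolic synthetase genes rose in Hep3B and the mitochondrial ones went both ways. Of the 20 cytosolic genes 17 were called higher and 1 lower in the authors' deposited table at the authors' edgeR FDR under 0.05, the threshold used throughout, against 36.7% of all expressed genes called higher and 35.4% called lower. Of the 16 mitochondrial genes 4 were called higher and 6 lower, which is near or under that background in both directions. The median log2 fold change in the authors' deposited table was 0.75 over the cytosolic genes, -0.05 over the mitochondrial genes and 0.01 over all expressed genes.

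The steepest rise was in SARS, which charges serine tRNAs: the authors' deposited table implies 258 CPM with both drugs and 72.5 CPM with DMSO, a log2 fold change of 1.83 (edgeR FDR = 1.86e-99). GARS, the glycine enzyme of both compartments, had 526 CPM with both drugs against 157 CPM with DMSO (log2 fold change 1.75, edgeR FDR = 1.33e-154, authors' deposited table). CARS had 115 CPM with both drugs against 37.9 CPM with DMSO (1.60, edgeR FDR = 3.46e-103, authors' deposited table). CARS is the cysteine enzyme. WARS, the tryptophan enzyme, which is also an interferon-induced gene, had 132 CPM with both drugs against 43.7 CPM with DMSO (1.59, edgeR FDR = 4.44e-46, authors' deposited table). AARS, the alanine enzyme, had 406 CPM with both drugs against 144 CPM with DMSO (1.501, edgeR FDR = 3.62e-95, authors' deposited table). YARS, the tyrosine enzyme, and TARS, the threonine enzyme, had log2 fold changes of 1.25 and 1.03 with both drugs in the authors' deposited table, both called. YARS and TARS ranked below EPRS of the multisynthetase complex, and TARS also below MARS. NARS, the asparagine enzyme (0.68), FARSB (0.37), VARS (0.28) and FARSA (0.18) made up the smaller calls outside the complex in the authors' deposited table.

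Within the complex the response in Hep3B was uneven. EPRS had 547 CPM with both drugs against 207 CPM with DMSO (log2 fold change 1.40, edgeR FDR = 7.47e-88), and MARS, the methionine enzyme, had 260.0 CPM with both drugs against 116 CPM with DMSO (1.16, edgeR FDR = 3.54e-66) in the authors' deposited table. LARS, the leucine enzyme that also serves as a leucine sensor for mTORC1, followed with 0.81 in the authors' deposited table. DARS (aspartate), KARS and RARS (arginine) rose less, with 0.52, 0.42 and 0.32 in the same authors' deposited table. QARS, the glutamine enzyme, had 109 CPM with both drugs against 104 CPM with DMSO and was not called (0.07, edgeR FDR = 0.566, authors' deposited table). IARS was not called either, with 0.22 (edgeR FDR = 0.237, authors' deposited table). HARS stood alone as the cytosolic gene that fell, with 18.8 CPM with both drugs against 26.6 CPM with DMSO (-0.50, edgeR FDR = 3.29e-07, authors' deposited table).

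Among the mitochondrial genes of Hep3B, WARS2 (tryptophan) had 20.1 CPM with both drugs against 11.2 CPM with DMSO in the authors' deposited table (log2 fold change 0.84, edgeR FDR = 2.04e-13). PARS2 rose by 0.82, FARS2 (phenylalanine) by 0.52 and NARS2 (asparagine) by 0.39 in the authors' deposited table. LARS2, the leucine enzyme, moved the other way, with 13.2 CPM with both drugs against 22.6 CPM with DMSO (-0.78, edgeR FDR = 2.77e-13, authors' deposited table). CARS2 (-0.71), AARS2 (-0.62), IARS2 (-0.30), YARS2 (-0.26) and SARS2 (-0.23) were the other calls in that direction in the authors' deposited table. The 6 genes not called lay between -0.09 (VARS2) and 0.05 (RARS2). Bulk libraries were measured, so a lower value can stand for fewer cells that carry the RNA as well as for less RNA per cell.

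**Figure D1:**
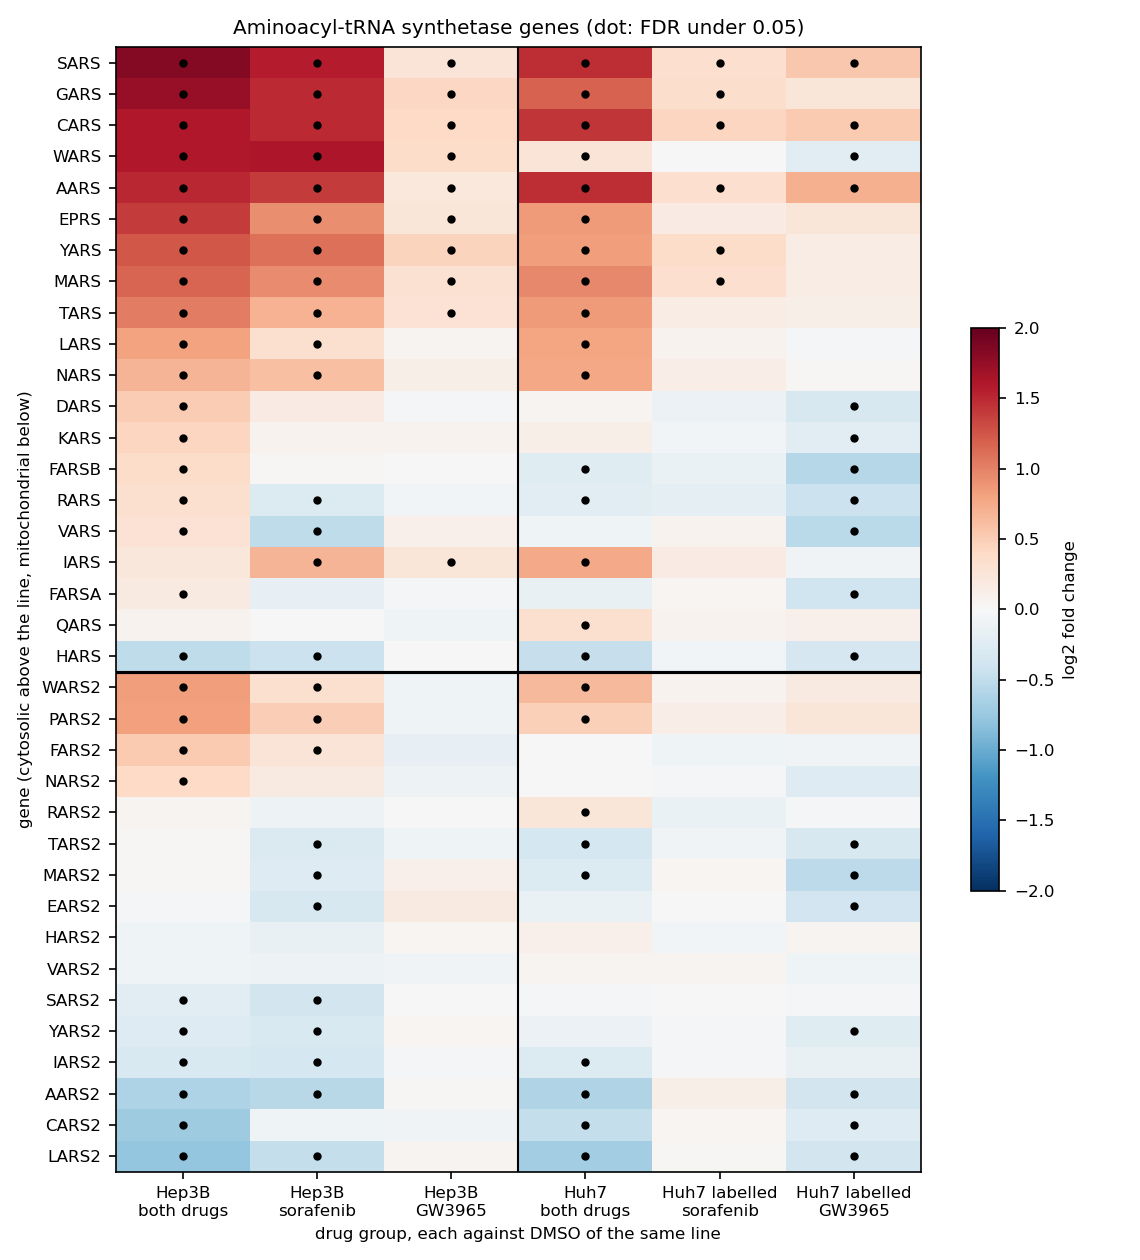
Log2 fold change over DMSO of the 36 synthetase genes (rows, cytosolic above mitochondrial) in the 6 comparisons of the authors' deposited tables (columns), with a mark where the authors' edgeR FDR was under 0.05. The cytosolic block holds most of the high values, up to 1.83 for SARS in Hep3B with both drugs, and the mitochondrial block holds the lowest, down to -0.78 for LARS2.

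**Figure D2:**
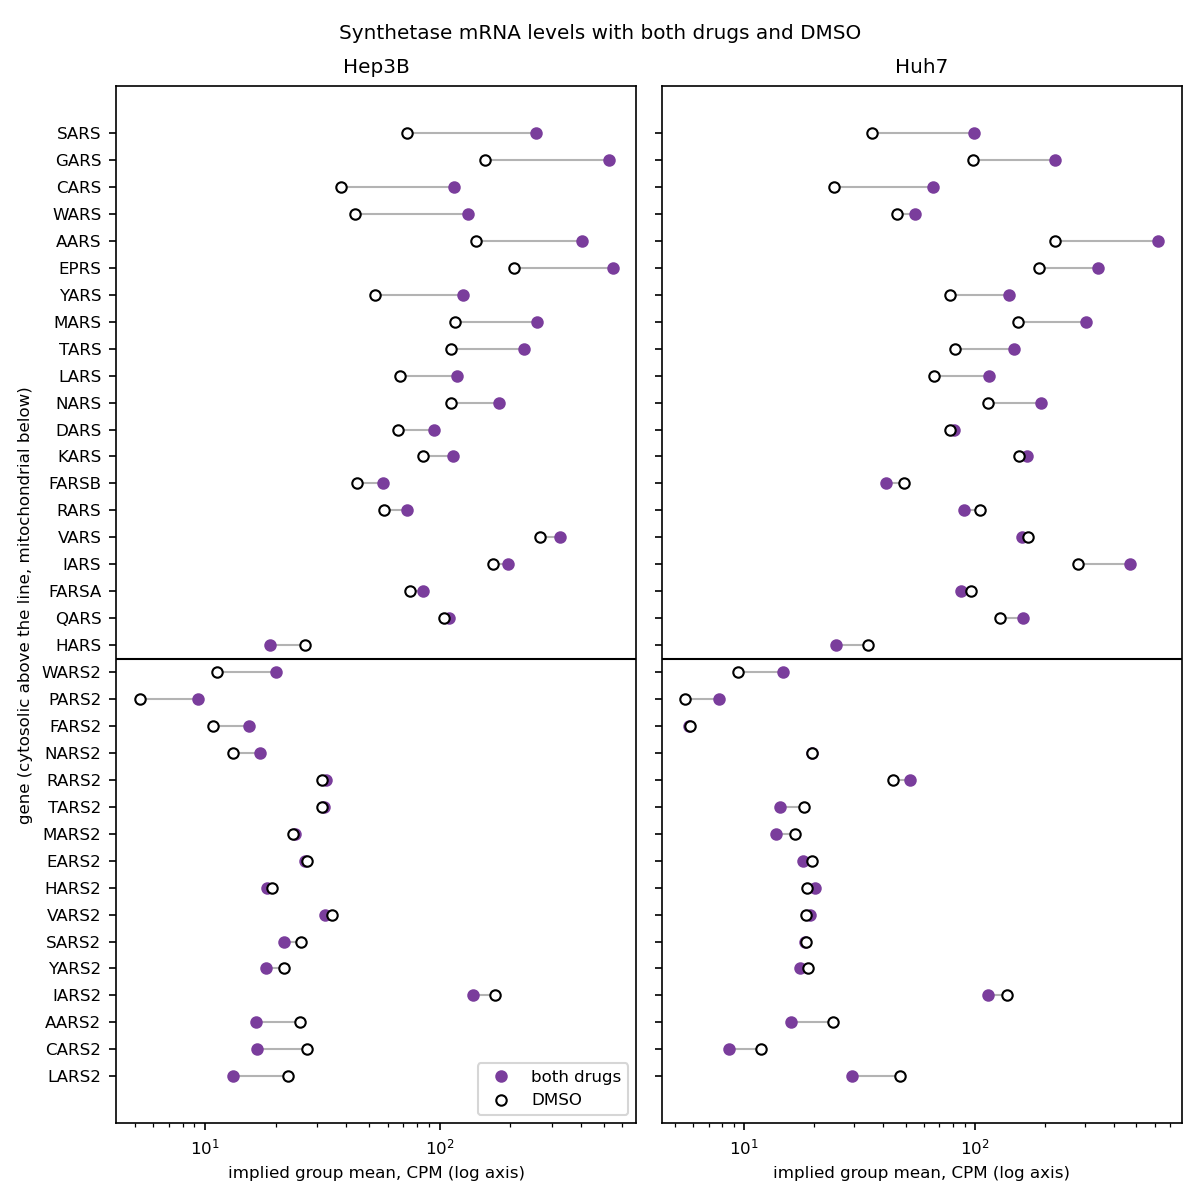
Group mean level (CPM, log axis) of each synthetase gene with both drugs and with DMSO in Hep3B and Huh7, as implied by the authors' deposited tables. SARS in Hep3B stood at 258 CPM with both drugs and 72.5 CPM with DMSO, while QARS stood at 109 CPM with both drugs and 104 CPM with DMSO.

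With both drugs in Huh7, 13 cytosolic and 3 mitochondrial genes were called higher, and the difference between the classes was not tested. Of the 20 cytosolic genes 13 were called higher and 3 lower in the authors' deposited table, against 35.5% of expressed genes called higher and 26.1% lower, and 3 of 16 mitochondrial genes were called higher and 6 lower. The median log2 fold change was 0.76 over the cytosolic genes, -0.07 over the mitochondrial genes and 0.07 over all expressed genes in the authors' deposited table. AARS led, with 623 CPM with both drugs against 223 CPM with DMSO (log2 fold change 1.48, edgeR FDR = 2.97e-94, authors' deposited table). SARS and CARS were close behind it. SARS had 98.6 CPM with both drugs against 35.6 CPM with DMSO (1.47, edgeR FDR = 5.14e-40), and CARS had 65.7 CPM with both drugs against 24.4 CPM with DMSO (1.43, edgeR FDR = 6.23e-77) in the authors' deposited table. GARS had 222 CPM with both drugs against 97.8 CPM with DMSO (1.19, edgeR FDR = 1.07e-58, authors' deposited table).

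MARS (0.97), EPRS (0.85), LARS (0.79), IARS (0.76) and QARS (0.32) were the complex members called higher in Huh7 in the authors' deposited table, and RARS (-0.23) was called lower. Outside the complex TARS (0.85), YARS (0.84) and NARS (0.77) were also called higher, while FARSA (-0.14) and VARS (-0.08) were not called, in the authors' deposited table. DARS (0.05) and KARS (0.11) were not called either. WARS, among the steepest in Hep3B, had 54.9 CPM with both drugs against 46.0 CPM with DMSO in Huh7 (log2 fold change 0.26, edgeR FDR = 0.00428, authors' deposited table). HARS had 24.8 CPM with both drugs against 34.2 CPM with DMSO (-0.46, edgeR FDR = 3.43e-07), and FARSB, the beta subunit of the phenylalanine enzyme, had -0.25 (edgeR FDR = 0.003) in the authors' deposited table. The mitochondrial genes that rose were again WARS2 (0.65) and PARS2 (0.48), together with RARS2 (0.24), in the authors' deposited table. LARS2 (-0.69), AARS2 (-0.61), CARS2 (-0.47), TARS2 (-0.35), IARS2 (-0.28) and MARS2 (-0.27) fell in the same authors' deposited table. HARS2 was not called (0.10, edgeR FDR = 0.373, authors' deposited table).

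Set side by side, the lines had these calls. Of the 20 cytosolic genes 11 were called higher in both lines by the authors' deposited tables for both drugs: AARS, CARS, EPRS, GARS, LARS, MARS, NARS, SARS, TARS, WARS and YARS. HARS was called lower in both. PARS2 and WARS2 were the mitochondrial genes called higher in both lines, and AARS2, CARS2, IARS2 and LARS2 those called lower in both. Of all expressed genes 23.4% were called higher in both lines and 18.4% lower in both in the authors' deposited tables, so these mitochondrial counts (2 and 4 of 16) and the cytosolic count lower (1 of 20) are near or under the share for all genes. DARS, FARSA, KARS and VARS were called higher in Hep3B and not called in Huh7, FARSB and RARS were higher in Hep3B and lower in Huh7, and IARS and QARS were higher in Huh7 and not called in Hep3B. EARS2 (glutamate), HARS2 and VARS2 (valine) were called in neither line.

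HARS and HARS2, which charge histidine tRNAs in the cytosol and in mitochondria, are read from opposite strands of chromosome 5, and only the cytosolic one was called. The 84 bases between their RefSeq start sites (GRCh38.p14, chr5:140691371-140691454, plus strand, 59.5% G and C) are shown because both genes start from this interval.

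HARS to HARS2 interval: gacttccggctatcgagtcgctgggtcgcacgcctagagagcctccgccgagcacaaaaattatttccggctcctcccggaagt

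With both drugs HARS2 had a log2 fold change of -0.08 in Hep3B and 0.10 in Huh7 in the authors' deposited tables. HARS had -0.50 in Hep3B and -0.46 in Huh7 in those tables. Whether the authors counted reads by strand is not stated in any source used.

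Whether the lines differed was tested on the difference of their both-drug log2 fold changes, Hep3B minus Huh7. This and the following differences come from an approximate test, in which each standard error is derived from the authors' deposited p-value and Benjamini-Hochberg adjustment runs over all expressed genes. In Hep3B minus Huh7, 11 of 20 cytosolic genes were called higher and 1 lower, against 17.7% of expressed genes higher and 26.3% lower, and 3 of 16 mitochondrial genes were higher and 0 lower. In either direction that is 15 of 36 genes (41.7%), against 44.0% of expressed genes. WARS had the largest difference of the 36 genes, 1.34 ± 0.14 (log2, approximate SE, adjusted p = 8.8e-20 by the approximate test). FARSB differed by 0.62 ± 0.12 (adjusted p = 1.7e-06), GARS by 0.56 ± 0.12 (adjusted p = 9.36e-06) and EPRS by 0.55 ± 0.12 (adjusted p = 1.35e-05) in the same approximate test. IARS was the member with the opposite call, -0.54 ± 0.17 (adjusted p = 0.00561, approximate test). In IARS the Huh7 response was thus the larger one.

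For other genes no difference between the lines was called by the approximate test. AARS differed between Hep3B and Huh7 by 0.02 (95% interval -0.21 to 0.25), LARS by 0.02 (-0.20 to 0.25) and AARS2 by -0.02 (-0.29 to 0.26). LARS2 differed by -0.09 (-0.36 to 0.17) and WARS2 by 0.19 (-0.11 to 0.50). Of these intervals the one of WARS2 includes the difference seen in KARS, 0.31 ± 0.12 (adjusted p = 0.0189, approximate test). MARS (0.19 ± 0.13, adjusted p = 0.221) and QARS (-0.26 ± 0.12, adjusted p = 0.0606) did not pass the approximate test. Among the mitochondrial genes FARS2 (0.53 ± 0.16, adjusted p = 0.0041), NARS2 (0.40 ± 0.14, adjusted p = 0.0123) and TARS2 (0.38 ± 0.13, adjusted p = 0.0107) were higher in Hep3B by the approximate test. PARS2 (0.34 ± 0.18), SARS2 (-0.21 ± 0.13) and CARS2 (-0.24 ± 0.17) were not called.

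**Figure D3:**
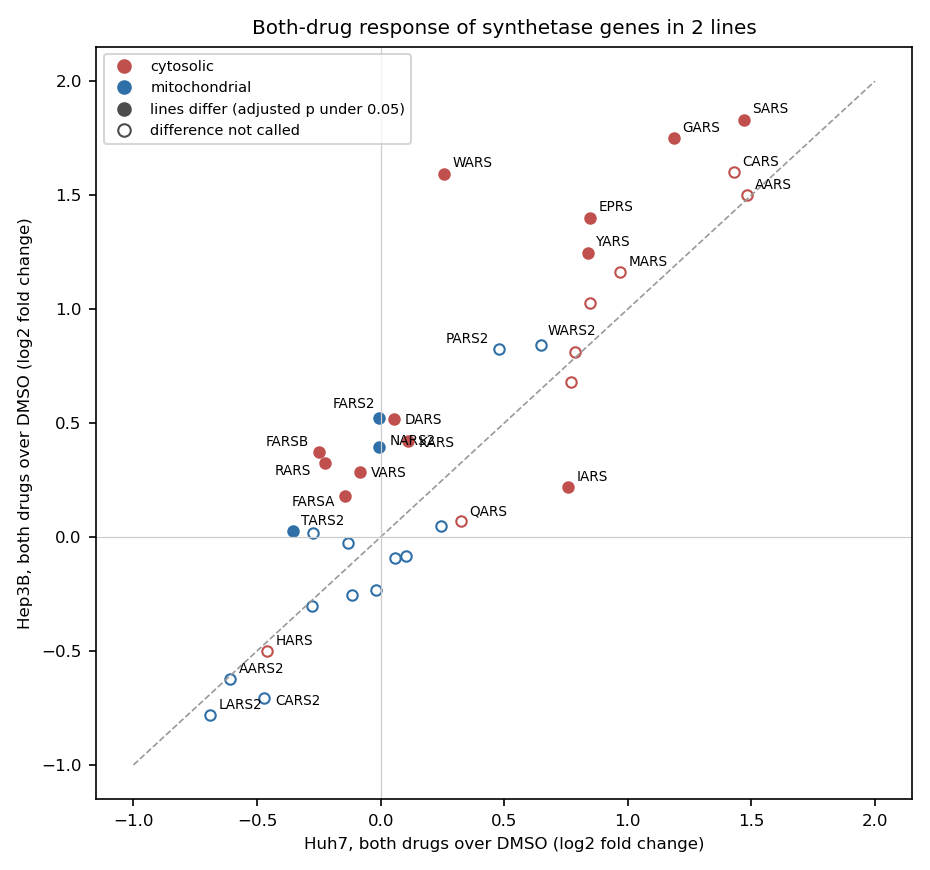
Log2 fold change with both drugs over DMSO in Hep3B (vertical) against Huh7 (horizontal) for the 36 synthetase genes, from the authors' deposited tables, with filled points where the approximate test called the lines different and a dashed line of equal response. WARS lies farthest above the line, at 1.59 in Hep3B and 0.26 in Huh7, and IARS lies below it.

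With sorafenib alone in Hep3B 12 of 20 cytosolic genes were called higher and 3 lower in the authors' deposited table, against 23.6% of expressed genes higher and 27.9% lower. The mitochondrial genes had 3 calls higher and 8 lower. The median log2 fold change was 0.64 over the cytosolic genes, -0.20 over the mitochondrial genes and -0.03 over expressed genes in the authors' deposited table. WARS led with 134 CPM with sorafenib against 43.7 CPM with DMSO (log2 fold change 1.62, edgeR FDR = 3.24e-52, authors' deposited table). CARS had 107 CPM with sorafenib against 37.8 CPM with DMSO (edgeR FDR = 2.34e-66, authors' deposited table). SARS (1.56), GARS (1.49) and AARS (1.40) were also called, with MARS at 0.95, in the authors' deposited table. These are also the leading genes of the group with both drugs, which shares the DMSO libraries.

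VARS, which works with the elongation factor that carries charged tRNAs, had 189 CPM with sorafenib against 268 CPM with DMSO in the authors' deposited table (log2 fold change -0.50, edgeR FDR = 1.09e-05). HARS (-0.43, edgeR FDR = 4.73e-06) and RARS (-0.27, edgeR FDR = 0.0155) were the other cytosolic genes called lower, and QARS (-0.01) was not called, in the authors' deposited table. AARS2 had the lowest mitochondrial value, -0.56 (edgeR FDR = 3.22e-06), and LARS2 had -0.48 (edgeR FDR = 0.000119) in the authors' deposited table. PARS2 (0.49), WARS2 (0.33) and FARS2 (0.26, edgeR FDR = 0.045) were called higher, and NARS2 (0.18) was not, in the authors' deposited table.

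GW3965 alone gave small rises in cytosolic synthetase genes in Hep3B. Of the 20 cytosolic genes 10 were called higher and 0 lower in the authors' deposited table, against 7.40% of expressed genes higher and 3.82% lower, and 0 of 16 mitochondrial genes were called at the edgeR FDR. The median log2 fold change was 0.16 over the cytosolic genes, -0.01 over the mitochondrial genes and 0.00 over expressed genes in the authors' deposited table. YARS had 68.8 CPM with GW3965 against 50.3 CPM with DMSO (0.45, edgeR FDR = 2.68e-10), and GARS had 197 CPM with GW3965 against 148 CPM with DMSO (0.41, edgeR FDR = 1.16e-11) in the authors' deposited table. CARS (0.39), WARS (0.36), MARS (0.31) and AARS (0.21) were called as well in the authors' deposited table. None of the 36 log2 fold changes with GW3965 reached 0.50.

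QARS (-0.08) and RARS (-0.06) had the lowest cytosolic values with GW3965 in the authors' deposited table, and neither was called. The mitochondrial genes ranged from -0.16 for FARS2 and -0.11 for NARS2 to 0.10 for MARS2 (methionine) and 0.17 for EARS2 (edgeR FDR = 0.0608) in the authors' deposited table. EARS2 was the mitochondrial gene called higher when adjustment ran over expressed genes alone. LARS2 (0.06), WARS2 (-0.08) and YARS2 (0.04) lay between them.

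In Huh7 labelled sorafenib, whose ABCG1 and DUSP6 values are given above, 6 of 20 cytosolic genes were called higher and 0 lower in the authors' deposited table, against 2.00% of expressed genes higher and 1.32% lower. No mitochondrial gene of the 16 was called at the edgeR FDR. CARS had 33.0 CPM in the group labelled sorafenib against 24.4 CPM with DMSO (log2 fold change 0.44, edgeR FDR = 3.81e-06, authors' deposited table). YARS (0.37), GARS (0.35), SARS (0.34), MARS (0.33) and AARS (0.33) made up the other calls in the authors' deposited table. WARS (-0.02), QARS (0.07), FARSB (-0.14) and RARS (-0.19) were not called, the last being the lowest cytosolic value. The mitochondrial values in the authors' deposited table ran from -0.14 (RARS2) and -0.09 (FARS2) to 0.12 (AARS2) and 0.13 (PARS2), with LARS2 at 0.02, VARS2 at 0.06 and WARS2 at 0.08.

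In Huh7 labelled GW3965, 3 of 20 cytosolic genes were called higher and 8 lower in the authors' deposited table, against 13.6% of expressed genes higher and 17.8% lower, and 0 mitochondrial genes were called higher and 7 lower. AARS had 374 CPM in the group labelled GW3965 against 228 CPM with DMSO (log2 fold change 0.72, edgeR FDR = 0.000192, authors' deposited table). SARS (0.54, edgeR FDR = 0.0195) and CARS (0.52, edgeR FDR = 0.0044) were the other genes called higher in the authors' deposited table. EPRS (0.24), GARS (0.24), MARS (0.15) and QARS (0.11) were not called. FARSB had 34.0 CPM in the group labelled GW3965 against 50.3 CPM with DMSO (-0.57, edgeR FDR = 1.79e-08), and VARS had -0.54 (edgeR FDR = 3.96e-05) in the authors' deposited table. WARS was among the genes called lower here (-0.23, edgeR FDR = 0.0222, authors' deposited table). MARS2 (-0.53), EARS2 (-0.38), LARS2 (-0.37) and AARS2 (-0.37) had the lowest mitochondrial values in the authors' deposited table, all called. PARS2 (0.24), WARS2 (0.18), HARS2 (0.06) and RARS2 (-0.02) had the highest and were not called.

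Both drugs were then set against each single drug, with the DMSO level common to the pair. In Hep3B 9 of 20 cytosolic genes were higher with both drugs than with sorafenib and 0 lower by the approximate test, against 16.6% of expressed genes higher and 14.5% lower, and 1 mitochondrial gene was called in each direction. VARS had the largest difference, 0.79 ± 0.13 (log2, adjusted p = 1.59e-07, approximate test), with log2 fold changes of 0.28 with both drugs and -0.50 with sorafenib in the authors' deposited tables. RARS (0.59 ± 0.13, adjusted p = 9.7e-05), LARS (0.50 ± 0.14, adjusted p = 0.00384) and EPRS (0.48 ± 0.13, adjusted p = 0.00245) followed in the approximate test. Of the 8 complex members 5 were called higher and of the 12 free genes 4, with no test of that difference. The median difference over expressed genes was 0.04 here, and with it subtracted 6 cytosolic genes were called higher and 1 lower.

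Several of the genes that rose most with sorafenib were not called in this comparison. AARS differed by 0.10 (95% interval -0.16 to 0.36), CARS by 0.10 (-0.16 to 0.36) and WARS by -0.02 (-0.32 to 0.27) between both drugs and sorafenib in Hep3B by the approximate test. SARS (0.27 ± 0.14, adjusted p = 0.118), GARS (0.26 ± 0.13, adjusted p = 0.125) and MARS (0.21 ± 0.13, adjusted p = 0.211) also did not pass the approximate test. IARS (-0.46 ± 0.19, adjusted p = 0.0557) and HARS (-0.07 ± 0.14) had the lowest cytosolic differences in the approximate test. WARS2 was higher with both drugs (0.51 ± 0.16, adjusted p = 0.00739) and CARS2 lower (-0.62 ± 0.15, adjusted p = 0.000428) by the approximate test. PARS2 (0.34 ± 0.19), TARS2 (0.31 ± 0.14), EARS2 (0.29 ± 0.14) and LARS2 (-0.30 ± 0.15) were not called.

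Against GW3965 in Hep3B, 15 cytosolic genes were higher with both drugs and 1 lower by the approximate test, against 30.7% of expressed genes higher and 33.2% lower, and the mitochondrial genes had 4 higher and 5 lower. The differences were largest in SARS (1.57 ± 0.10), GARS (1.34 ± 0.10), AARS (1.29 ± 0.10) and WARS (1.23 ± 0.12, adjusted p = 5.87e-22, approximate test). HARS was the gene called lower (-0.50 ± 0.11, adjusted p = 3.42e-05, approximate test), and IARS (-0.03 ± 0.16) was not called. WARS2 (0.93 ± 0.14), PARS2 (0.91 ± 0.18), FARS2 (0.68 ± 0.13) and NARS2 (0.50 ± 0.12) were higher, and LARS2 (-0.84 ± 0.12) and CARS2 (-0.64 ± 0.13) were lower by the approximate test.

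In Huh7, against the group labelled sorafenib, 13 cytosolic genes were higher and 1 lower by the approximate test, against 29.1% of expressed genes higher and 18.0% lower, and 2 mitochondrial genes were higher and 4 lower. AARS (1.15 ± 0.11), SARS (1.13 ± 0.14), CARS (0.99 ± 0.12) and GARS (0.84 ± 0.11) had the largest differences, while HARS was lower (-0.41 ± 0.12, adjusted p = 0.00188, approximate test). FARSA (-0.18 ± 0.12) was not called. WARS2 (0.57 ± 0.15, adjusted p = 0.000499) and RARS2 (0.38 ± 0.12, adjusted p = 0.00295) were higher and AARS2 (-0.72 ± 0.13) and LARS2 (-0.71 ± 0.12) lower by the approximate test.

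Against the group labelled GW3965, 16 cytosolic genes were higher with both drugs and 0 lower by the approximate test, against 20.4% of expressed genes higher and 9.61% lower, and 1 mitochondrial gene was higher and 0 lower. The median difference over expressed genes was 0.11 in this comparison, and with it subtracted 12 cytosolic and 0 mitochondrial genes were called higher. GARS (0.94 ± 0.14), SARS (0.93 ± 0.21), CARS (0.91 ± 0.17) and LARS (0.83 ± 0.13) had the largest differences in the approximate test. HARS (-0.12 ± 0.14) and RARS (0.20 ± 0.13) had the lowest cytosolic ones and were not called. WARS2 was the mitochondrial gene called higher (0.46 ± 0.18, adjusted p = 0.0316, approximate test). LARS2 (-0.32 ± 0.14, adjusted p = 0.0605) and AARS2 (-0.24 ± 0.14) had the lowest mitochondrial differences in the approximate test and were not called.

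**Figure D4:**
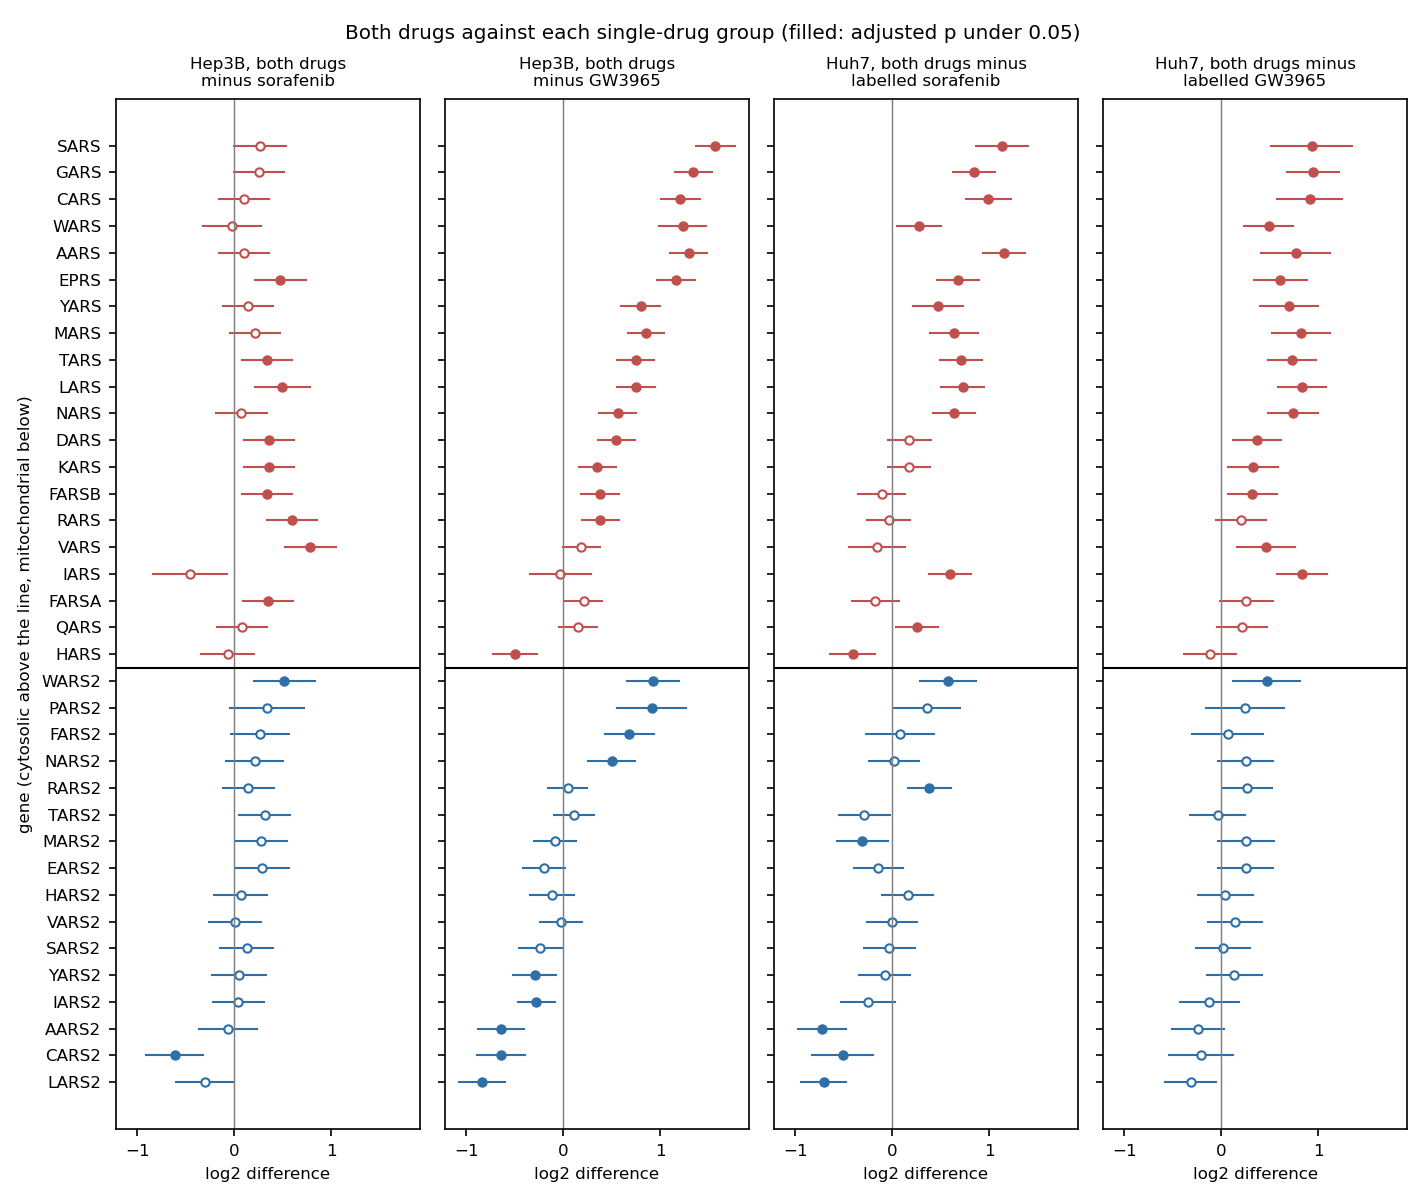
Difference in log2 fold change (horizontal), both drugs minus each single-drug group, for the 36 synthetase genes (rows, cytosolic in red above mitochondrial in blue), with lines for the approximate 95% interval and filled points at an adjusted p under 0.05. In Hep3B the difference from sorafenib was 0.79 for VARS and -0.02 for WARS, and the Huh7 groups are named by their labels.

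For 13 amino acids a cytosolic and a mitochondrial gene of these lists differ in symbol only by the suffix 2, and these were taken as pairs. Phenylalanine, glutamate and proline also have separate genes here but were left out, since FARSA, FARSB and EPRS have no such partner by symbol. With both drugs in Hep3B FARSA (0.18) and FARSB (0.37) lay below FARS2 (0.52), while EPRS (1.40) lay above PARS2 (0.82) and above EARS2, which was not called. The cytosolic gene had the higher log2 fold change in 12 of 13 pairs with both drugs in Hep3B and in 9 of 13 in Huh7 in the authors' deposited tables. The gap was widest for cysteine in Hep3B, with CARS above CARS2 by 2.31 (log2), and for alanine in Huh7, with AARS above AARS2 by 2.09. Histidine ran the other way in both lines, with HARS minus HARS2 at -0.42 in Hep3B and -0.56 in Huh7. Tryptophan was ordered differently in each line, since WARS minus WARS2 was 0.75 in Hep3B and -0.39 in Huh7 in the authors' deposited tables. The 13 pairs gave the cytosolic gene the higher value in 10 with sorafenib and 11 with GW3965 in Hep3B, and in 11 with labelled sorafenib and 9 with labelled GW3965 in Huh7. No test was made over the pairs.

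**Figure D5:**
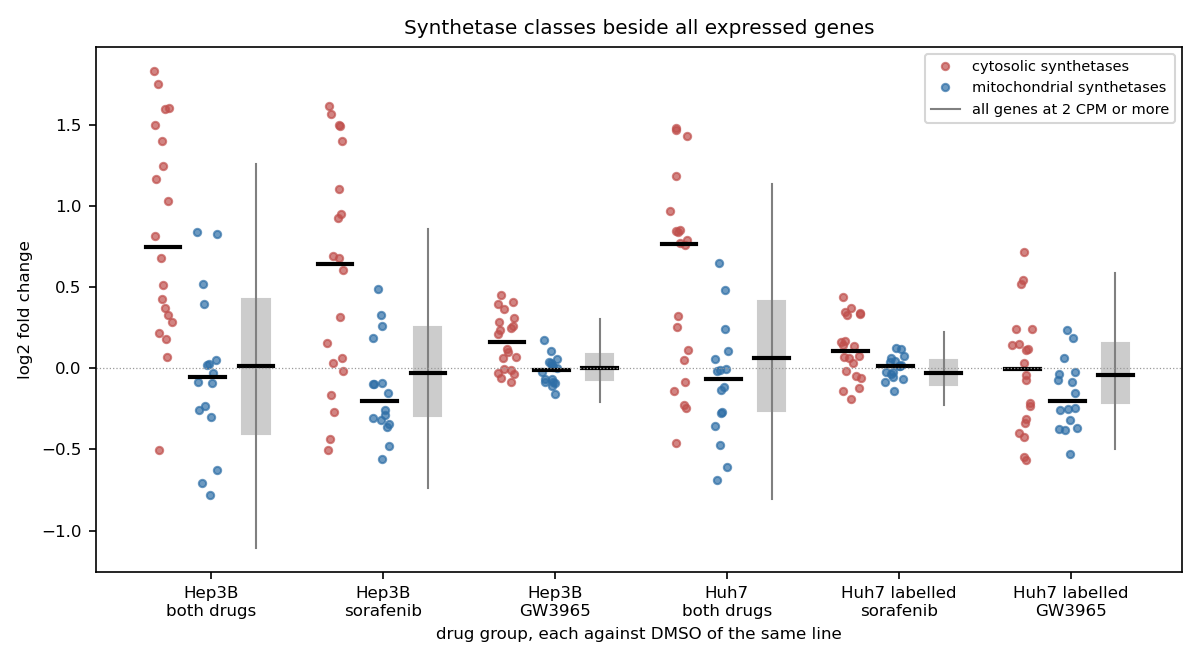
Log2 fold change over DMSO of each synthetase gene (points) by compartment in the 6 comparisons of the authors' deposited tables, with the median of each class as a black bar. Grey boxes span the 25th to 75th percentile of all expressed genes and grey lines the 5th to 95th. With both drugs the cytosolic medians were 0.75 in Hep3B and 0.76 in Huh7, and the mitochondrial medians were -0.05 in Hep3B and -0.07 in Huh7.

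The cytosolic genes can also be grouped by complex and by catalytic class. With both drugs in Hep3B the 8 complex members had a median log2 fold change of 0.47 and the 12 free enzymes or subunits 1.14 in the authors' deposited table. In Huh7 these medians were 0.54 for the complex and 0.80 for the free genes. The 9 cytosolic class I genes had medians of 0.81 in Hep3B and 0.76 in Huh7, and the 10 class II genes had 0.60 in Hep3B and 0.44 in Huh7 with both drugs in the authors' deposited tables. FARSA and FARSB, subunits of 1 enzyme, had 0.18 and 0.37 in Hep3B, and -0.14 and -0.25 in Huh7, with both drugs in the authors' deposited tables. These are descriptions of the lists, with no test of them.

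The scaffold proteins of the complex did not move as 1 group. With both drugs AIMP2 rose in both lines (1.04 in Hep3B and 0.58 in Huh7), AIMP1 rose in Hep3B (0.44) and had 0.00 in Huh7, and EEF1E1 had 0.07 in Hep3B and fell in Huh7 (-0.64) in the authors' deposited tables. Of 4 genes for the indirect route to mitochondrial glutamine tRNA and for formyl-methionine tRNA, 1 was called higher and 2 lower in each line with both drugs, which is near the shares of expressed genes (36.7% higher and 35.4% lower in Hep3B, and 35.5% higher and 26.1% lower in Huh7). The gene called higher was QRSL1, a subunit of the mitochondrial amidotransferase (0.95 in Hep3B and 0.57 in Huh7), and its partner GATC was called lower (-0.62 in Hep3B and -0.34 in Huh7) in the authors' deposited tables. Both genes that make selenocysteine on its tRNA were called higher in each line, against the same shares. SEPSECS had 1.13 in Hep3B and 0.40 in Huh7, and PSTK had 0.46 in Hep3B and 0.76 in Huh7 in the authors' deposited tables. PSTK lay near the minimum of 2 CPM, with 2.13 CPM in Hep3B and 1.65 CPM in Huh7 under DMSO. Of 4 genes that remove wrong or stalled products from tRNA, 4 were called higher in Hep3B and 3 in Huh7, against the same shares, led by DTD1, a D-aminoacyl-tRNA deacylase, with 1.29 in Hep3B and 0.83 in Huh7.

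Stress response genes under ATF4 moved in the same samples. All 7 of a short list (ATF4, DDIT3, TRIB3, CHAC1, ASNS, PSAT1 and SESN2) were called higher with both drugs in each line, and their median was 2.75 in Hep3B and 2.88 in Huh7, in the authors' deposited tables. ASNS, which makes asparagine, had 323 CPM with both drugs against 45.5 CPM with DMSO in Hep3B, and 336 CPM with both drugs against 41.1 CPM with DMSO in Huh7, in the authors' deposited tables. All 7 were also called higher with sorafenib in Hep3B, with a median of 2.45. With GW3965 in Hep3B 6 of the 7 were called higher, with a median of 0.43. Of expressed genes in Hep3B 36.7% were called higher with both drugs, 23.6% with sorafenib and 7.40% with GW3965. In Huh7 6 of the 7 were called higher in the group labelled sorafenib (median 0.82) and 6 in the group labelled GW3965 (median 1.27) in the authors' deposited tables. Of expressed genes in Huh7 35.5% were called higher with both drugs, 2.00% in the group labelled sorafenib and 13.6% in that labelled GW3965. The part of the stress response genes in the synthetase values was not tested.

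The cytosolic genes whose promoter window held TGATGNAA had the higher median in all 6 comparisons. With both drugs the 7 genes with a match had a median log2 fold change of 1.16 in Hep3B and 0.97 in Huh7, against 0.37 in Hep3B and 0.11 in Huh7 for the 9 without, in the authors' deposited tables. In Hep3B the 2 sets overlapped widely, since SARS without a match had 1.83 and IARS with one had 0.22. They overlapped in Huh7 as well, from 0.76 to 1.48 with a match and from -0.46 to 1.47 without. Called higher with both drugs were 6 of 7 genes with a match and 7 of 9 without in Hep3B, against 36.7% of expressed genes. In Huh7 these were 7 of 7 and 4 of 9, against 35.5%. Of the 9 cytosolic genes with a window that were called higher in both lines 6 held the motif (66.7%), against 1 of the other 7 (14.3%). The motif was chosen with these fold changes known, and comparisons of the same line share DMSO libraries. These contrasts are therefore descriptions, and a part of ATF4 in them was not tested. YARS2, the mitochondrial gene with the motif, had -0.26 in Hep3B and -0.11 in Huh7 with both drugs in the authors' deposited tables.

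Markers of cell types were followed in the same tables. With both drugs 5 of 6 hepatocyte markers (all but HNF4A) were called lower in Hep3B and 4 of 6 in Huh7, against 35.4% of expressed genes in Hep3B and 26.1% in Huh7, and their median was -0.66 in Hep3B and -0.64 in Huh7, in the authors' deposited tables. Under sorafenib in Hep3B the hepatocyte markers had 1 call higher and 2 lower, against 23.6% of expressed genes higher and 27.9% lower. Under GW3965 in Hep3B they had 1 call higher, against 7.40% higher and 3.82% lower. The Huh7 group labelled sorafenib had 0 calls among them, against 2.00% higher and 1.32% lower. That labelled GW3965 had 2 of them higher and 1 lower, against 13.6% higher and 17.8% lower. With both drugs the 3 fibroblast markers all lay below DMSO in Hep3B and went different ways in Huh7. They had 0 calls higher and 2 lower in Hep3B, against 36.7% of expressed genes higher and 35.4% lower. In Huh7 they had 1 call higher and 1 lower, against 35.5% higher and 26.1% lower. COL1A2 had 2.32 CPM with both drugs against 3.53 CPM with DMSO in Hep3B, and 46.3 CPM with both drugs against 61.6 CPM with DMSO in Huh7, in the authors' deposited tables. COL1A1 had 0.534 CPM with both drugs against 0.705 CPM with DMSO in Hep3B, and 21.8 CPM with both drugs against 10.97 CPM with DMSO in Huh7, in the same authors' deposited tables. PDGFRB had 2.09 CPM with both drugs against 9.13 CPM with DMSO in Hep3B, and 4.19 CPM with both drugs against 11.1 CPM with DMSO in Huh7, in the authors' deposited tables. CD68 was called higher in Huh7, with 4.62 CPM with both drugs against 2.66 CPM with DMSO in the authors' deposited table, and was not called in Hep3B. The endothelial markers, all under 1 CPM, had 2 calls higher and 1 lower in Huh7 with both drugs. Of expressed genes 35.5% were called higher and 26.1% lower there. In Huh7 labelled sorafenib 1 endothelial marker was called higher, against 2.00% of expressed genes. The part of these markers in the synthetase values was not tested.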

How the data were processed

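RNA-seq of 70 poly-A libraries was analysed from the authors' 6 comparison tables, in which each drug group is set against DMSO in the same line. The submitters' processing notes name edgeR and the builds hg19 and GRCh37, with no edgeR version; the aligner, read counting and kind of test are unstated in every source used here. The authors deposited for each transcript, per the file headers, its mean log2 CPM, log2 fold change, p-value, FDR and the count of libraries with a nonzero value. The deposited tables hold no values of single libraries, so the count tests foreseen for tables of counts were not run. Benjamini-Hochberg adjustment of the deposited p-values gave the deposited FDR.

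Group levels in CPM were computed by taking the authors' mean CPM as the average of both groups, weighted equally, and the fold change as their ratio, and were checked on the DMSO level, which differed between tables of a line by a median of at most 0.080 (log2). Levels per kb use lengths of GENCODE 29 transcripts. Differences between 2 fold changes were tested approximately: the standard error is the fold change over the normal score of its p-value, with the median over genes of like level (20 bins of mean CPM) as its minimum and in its place where p was above 0.5. Groups of a line share DMSO libraries, which this sum of errors counts more than once. This step was tested on simulated data, with t-test p-values and the same spread setting for every gene. Its errors with the authors' edgeR p-values were therefore not checked. The members, lists and motif were chosen with earlier results of these data known. Genes named in the comparisons with DMSO include, per class, the 4 highest and the 2 lowest fold changes and the members called against most of their class. AARS, GARS, WARS, MARS, QARS, LARS2 and WARS2 are named in each of these comparisons. Where both drugs are set against a single-drug group, only some of the genes under this rule are named. Alternatives were thresholds of 0.01, a change of at least 1.5-fold, other sets of genes in the adjustment, the transcript with the highest CPM, subtraction of the median, and no minimum on the standard error. Scripts ran in Python 3.11.15 with numpy 2.4.6, pandas 2.3.3, scipy 1.17.1 and matplotlib 3.10.9.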

Additional observations from a re-analysis of the deposited data

Results flagged for a closer look

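The both-drug response differed between Hep3B and Huh7 in 15 of the 36 genes by the approximate test of the difference itself. That is 41.7% of them, against 44.0% of all expressed genes, with both classes and both directions pooled. Of the 20 cytosolic genes 11 were called higher in Hep3B and 1 lower. Of the 16 mitochondrial genes 3 were called higher and 0 lower. Among expressed genes 17.7% were called higher and 26.3% lower. The difference of log2 fold changes, Hep3B minus Huh7, was 1.338 for WARS, 0.6191 for FARSB, 0.5637 for GARS, 0.5543 for EPRS and 0.5514 for RARS. It was 0.462 for DARS, 0.4086 for YARS, 0.3661 for VARS, 0.3622 for SARS, 0.323 for FARSA and 0.3131 for KARS. Of the cytosolic genes IARS differed in the other direction, by -0.539. Among the mitochondrial genes the difference was 0.5287 for FARS2, 0.3987 for NARS2 and 0.3801 for TARS2. FARSB and RARS were called higher in Hep3B and lower in Huh7 in the authors' deposited tables, so their direction differed as well. What lies behind these differences was not tested.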

How the results depend on the processing

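Of 230 recomputed counts and differences of class medians, 203 stayed within the limits set for them and 27 moved. A count within its limits could still shift. For both drugs against sorafenib in Hep3B, the cytosolic genes called higher went from 9 to 6 with the median difference subtracted. No called synthetase gene reversed its direction under these alternatives. Of 216 single gene values, 15 lost their call at an FDR of 0.01 and 71 at a change of at least 1.5-fold. With the transcript of highest CPM 0 changed, but only 9 of the synthetase genes had several transcripts. The values of all other genes could not change under that alternative, so it says nothing about them. Among those 9 genes the transcripts differed most in SARS (log2 fold change, up to 0.24) and next in WARS (up to 0.019). Of 180 differences in the approximate test 7 gained and 10 lost their call with the median difference subtracted. A change of at least 1.5-fold on top of the FDR moved most counts, by its construction. With it, the Hep3B group with both drugs kept 11 cytosolic genes higher and 0 lower, and 2 mitochondrial higher and 3 lower. Hep3B sorafenib then had 0 cytosolic lower, 0 mitochondrial higher and 0 mitochondrial lower, and Hep3B GW3965 had 0 cytosolic higher. Huh7 with both drugs had 0 cytosolic lower, 1 mitochondrial higher and 2 mitochondrial lower. Huh7 labelled GW3965 had 1 cytosolic higher, 0 cytosolic lower and 0 mitochondrial lower, and Huh7 labelled sorafenib had 0 cytosolic higher. At an FDR of 0.01 Hep3B sorafenib had 1 mitochondrial higher and 5 lower. With adjustment over expressed genes alone Hep3B GW3965 had 1 mitochondrial higher. In the approximate test at 0.01, both drugs against sorafenib in Hep3B had 4 cytosolic higher, Hep3B against Huh7 had 7 cytosolic and 1 mitochondrial higher, and both drugs against labelled GW3965 in Huh7 had 0 mitochondrial higher. With the median difference subtracted that last comparison had 0 mitochondrial higher and 2 lower, and both drugs against sorafenib in Hep3B had 1 cytosolic lower. With no minimum on the standard error, both drugs against labelled GW3965 had 1 mitochondrial lower and Hep3B against Huh7 had 2 cytosolic lower.

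No paired analysis was possible because the tables hold no values of single libraries. For the same reason leaving out each replicate, another normalization and another filter on low counts were not run. SARS had 2 transcripts whose log2 fold changes differed by up to 0.24.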
